A study of Homo sapiens with 6 samples.

Results

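The genes described are 10 that encode desmosome proteins, chosen by symbol from the 60675 rows of the deposited count table. There are 6 plaque genes (DSP, JUP, PPL, PKP2, PKP3 and PKP4), 3 desmosomal cadherin genes (DSG2, DSC2 and DSC3) and PERP, a tetraspan membrane protein gene. Polyadenylated RNA was sequenced from SUM159, an established line from a human breast cancer that lacks hormone receptors and HER2 amplification. There were 3 libraries labelled DAPK3 KO, from the line numbered 3, and 3 labelled control with wild-type DAPK3. All were grown in Ham's F-12 with 5% serum, HEPES (10 mM), insulin (5 µg/mL) and hydrocortisone (1 µg/mL). The knockout group is 1 line, so the knockout and features particular to that line cannot be told apart, and no label states whether the 3 libraries of a group are separate cultures. P-values therefore reflect how far these libraries differ, a spread that may be technical.

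Desmosomes are cell-cell junctions that tie the keratin filaments of neighbouring cells together. Desmogleins and desmocollins are cadherins whose extracellular parts bind between cells. Their cytoplasmic tails bind plakoglobin (JUP) and plakophilins (PKP), which bind desmoplakin (DSP), and desmoplakin holds the keratins. These proteins are best known from skin and heart, where mutations in several of their genes cause blistering disease or arrhythmogenic cardiomyopathy.

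DAPK3, the kinase targeted by the knockout, went against the label in the R2 library of each group. It stood at 13.1, 27 and 11.3 CPM (read counts scaled to library size with TMM factors) in the libraries labelled KO R1, R2 and R3, against 26.1, 10.6 and 25.9 CPM in those labelled control R1, R2 and R3. The R2 libraries of the KO and control groups may have been exchanged, which was not tested. If so, the means, fold changes and label patterns over all 6 libraries would each hold 1 library of the wrong group on either side. No library was moved to another group. Comparisons were made over all 6 libraries and again without both R2 libraries, which leaves 2 per label. Both are given for each member tested, and for some other genes only 1 of them. Because those libraries were left out with their values known, the p-values of the smaller comparison are not independent evidence for the labels. Each library held between 16312184 and 22970823 expected counts. Between 11.9 and 109 chi-square per degree of freedom separated any pair of libraries, so no library was a copy of another. The closest pair, at 11.9, was the library labelled KO R3 with that labelled control R2. On the first principal component of all genes tested (74.2% of variance), KO R1, KO R3 and control R2 lay apart from the others.

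The labelled cell type was checked against its markers. ESR1 stood below 0.5 CPM in each library, PGR had 0 counts, and ERBB2 stood at 52.1 to 58.8 CPM in the libraries labelled KO and 68.6 to 96.9 CPM in those labelled control. VIM stood at 1420 to 2730 CPM in the libraries labelled KO and at 1920 to 3570 CPM in those labelled control, while EPCAM and the classical epithelial cadherin gene CDH1 had at most 1 count in any library. Mitochondrial transcripts made up 4.20% to 6.85% of the libraries.

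The promoter sequence of DSP is shown because DSP had the widest range of CPM between libraries among the members, and that of DSG2 because its RNA hardly varied. Promoter windows of 250 bases before the RefSeq start (GRCh38.p14) were found for 7 of the 10 genes, 10 windows in all. PKP2, PKP3 and PPL had none. Bases that lie within an exon of the gene in GENCODE 29 are not printed as long stretches. Capitals mark the E-box CAGGTG or its complement CACCTG, a sequence that ZEB and SNAI repressors of epithelial genes are known to bind. Both stretches lie on the plus strand and are given 5′ to 3′, DSP at chr6:7541421-7541574 and DSG2 at chr18:31497927-31498042.
DSP upstream: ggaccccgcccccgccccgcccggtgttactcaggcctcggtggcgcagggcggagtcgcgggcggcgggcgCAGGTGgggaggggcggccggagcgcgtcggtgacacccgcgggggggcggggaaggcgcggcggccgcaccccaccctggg
DSG2 upstream: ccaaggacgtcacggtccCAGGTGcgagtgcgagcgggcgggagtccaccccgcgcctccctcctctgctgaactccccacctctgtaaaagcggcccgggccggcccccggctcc

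The E-box was in 4 of the 10 windows, those of DSP, DSG2, the downstream start of JUP and the upstream start of DSC2. Over all 35116 RefSeq promoter windows of the same length, 17.5% held it. The sites are given with 5 bases on each side, on the strand of the gene. PKP2, PKP3 and PPL had no window to search, and any part of the motif in the RNA levels was not tested. The first base of the motif lay 178 and 85 bases before the start in DSP, 54 in JUP, 232 and 116 in DSG2 and 156 in DSC2. The JUP stretch holds 2 motifs, the other lying 43 bases before the start. The DSP site at 85, the JUP sites and the DSG2 site at 116 lie in an exon of their gene in GENCODE 29. The stretches are chr6:7541488-7541503 and chr6:7541581-7541596 (plus strand), chr17:41786009-41786035 (minus), chr18:31497940-31497955 and chr18:31498056-31498071 (plus) and chr18:31102567-31102582 (minus), in the order printed.
DSP site 178: gggcgCAGGTGgggag
DSP site 85: ccggcCAGGTGtggcc
JUP sites 54: ggcccCACCTGccgagCAGGTGagcgc
DSG2 site 232: ggtccCAGGTGcgagt
DSG2 site 116: ggccaCACCTGgagcc
DSC2 site 156: tctgtCAGGTGggcct
No E-box overlapped another motif searched. On both strands, GGGCGG was in 8 of the 10 windows against 42.6% of all windows, CCAAT in 3 against 32.0%, TGANTCA in 1 (PERP) against 6.57%, TATAAA in 0 against 10.7%, and AACCGGTT in 0 against 0.117%. A match describes the letters of the window and does not show binding.

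Of the 6 plaque genes, 5 (DSP, PKP2, PKP3, JUP and PPL) crossed the labels, and the cadherin gene DSG2 hardly varied. The 5 were high in the libraries labelled KO R1, KO R3 and control R2 and low in those labelled KO R2, control R1 and control R3. In the comparison of all libraries, edgeR called 0 of the 9 members tested (background 0% of 14613 genes) at an adjusted p under 0.05. None of the 9 had an unadjusted p under 0.05, against 1119 genes or 7.66% of all tested. Limma-voom also called 0 members, and DESeq2 called 0 of the 7 for which it gave an adjusted p, which it did not for DSP and DSC3. Without both R2 libraries edgeR called 5 of the 9 members (background 27.3% of genes either way), all higher in the libraries labelled KO, where 12.2% of 14846 genes were called higher, and 0 lower, where 15.2% were. The median log2 fold change of the 9 was 0.87, beside −0.02 over all genes tested.

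**Figure D1:**
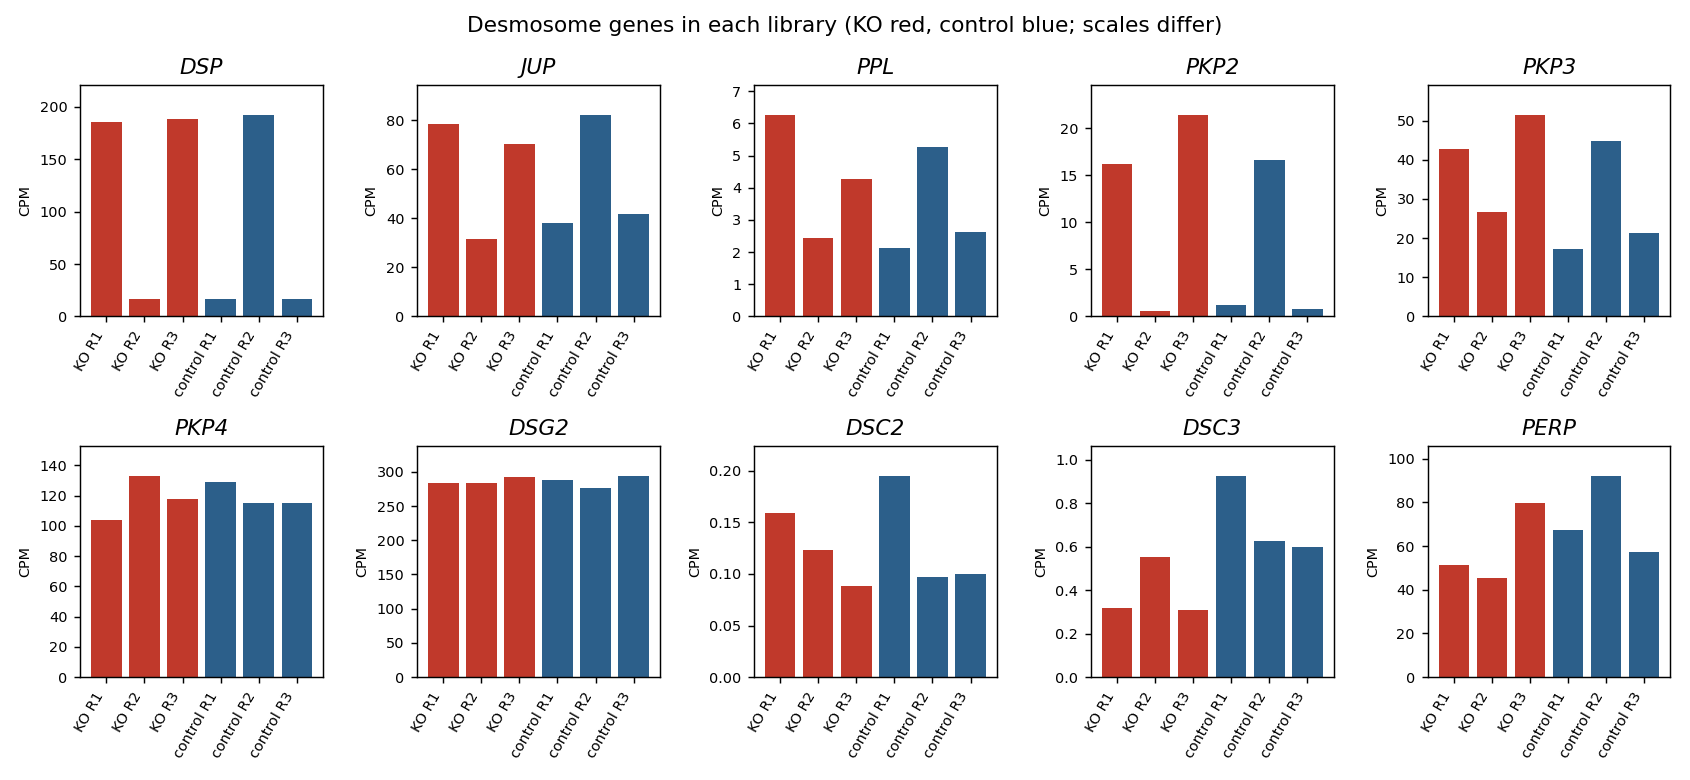
CPM (y axis, a separate linear scale for each gene) of the 10 desmosome genes in the 6 libraries (x axis), KO red and control blue, 1 bar per library. DSP, JUP, PPL, PKP2 and PKP3 are high in KO R1, KO R3 and control R2, while DSG2 stands between 277 and 294 CPM in every library.

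Desmoplakin is the plakin that links the plaque to keratin filaments. DSP (ENSG00000096696, GRCh38 chromosome 6, 7541575 to 7586717, plus strand, protein-coding) stood at 185, 16.7 and 188 CPM in the libraries labelled KO R1, R2 and R3, against 16.7, 192 and 17 CPM in those labelled control R1, R2 and R3. The labelled groups overlapped, because 1 library of each sat among those of the other label. The means were 130 ± 98.1 CPM in libraries labelled KO and 75.4 ± 101 CPM in those labelled control (SD, n = 3 each), with a log2 fold change of 0.79 (edgeR adjusted p = 0.87, SE 1.19). Without both R2 libraries the log2 fold change was 3.44 (edgeR adjusted p = 3e-05, SE 0.12), a 10.8-fold higher level in both libraries labelled KO. The lowest count behind these values was 272. DSP ranked 54 and PKP2 ranked 31 from the highest fold change among the 14846 genes tested without both R2 libraries.

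Plakoglobin, the armadillo protein that binds cadherin tails in both desmosomes and adherens junctions, showed the same division with a smaller range. JUP (ENSG00000173801, chromosome 17, 41754604 to 41786931, minus strand) stood at 78.5, 31.7 and 70.2 CPM in the libraries labelled KO R1, R2 and R3, against 37.9, 82.0 and 41.8 CPM in those labelled control R1, R2 and R3. The log2 fold change was 0.16 (edgeR adjusted p = 0.92, SE 0.41) over all libraries and 0.87 (edgeR adjusted p = 0.0047, SE 0.13) without both R2 libraries. Without both R2 libraries this is 1.82-fold higher in the libraries labelled KO.

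Periplakin, a plakin of the desmosomal plaque and the cornified envelope, had the lowest CPM of the called members in the libraries labelled KO R1, KO R3 and control R2, and PKP2 had the lowest in the other libraries. PPL (ENSG00000118898, chromosome 16, 4882507 to 4960741, minus strand) stood at 6.26, 2.45 and 4.26 CPM in the libraries labelled KO R1, R2 and R3, against 2.14, 5.26 and 2.64 CPM in those labelled control R1, R2 and R3, from 40 to 118 counts. Over all libraries its log2 fold change was 0.37 (edgeR adjusted p = 0.85, SE 0.47) and it was not called. It was called higher without both R2 libraries, at a log2 fold change of 1.10 (edgeR adjusted p = 0.043, SE 0.32). That call was lost when the library labelled KO R1, control R1 or control R3 was also left out (edgeR adjusted p = 0.19, 0.15 and 0.068) and when genes with low counts were kept (0.052).

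The plakophilins, armadillo proteins that cluster desmoplakin at the plaque, differed from each other. PKP2 (ENSG00000057294, chromosome 12, 32790745 to 32896840, minus strand), the plakophilin of simple epithelia and heart, stood at 16.2, 0.551 and 21.4 CPM in the libraries labelled KO R1, R2 and R3, against 1.17, 16.6 and 0.749 CPM in those labelled control R1, R2 and R3. The low values of PKP2 rest on 9 to 24 counts. Over all libraries its log2 fold change was 1.05 (edgeR adjusted p = 0.86, SE 1.44). Without both R2 libraries it was 4.26 (edgeR adjusted p = 0.00026, SE 0.30), or 19.1-fold, the largest fold change among the members.

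PKP3 (ENSG00000184363, chromosome 11, 392614 to 404908, plus strand), a plakophilin of most epithelia, stood at 42.7, 26.6 and 51.4 CPM in the libraries labelled KO R1, R2 and R3, against 17.1, 44.7 and 21.3 CPM in those labelled control R1, R2 and R3. It was called higher without both R2 libraries (log2 fold change 1.26, edgeR adjusted p = 0.0032, SE 0.18) and not over all libraries (0.54, edgeR adjusted p = 0.75, SE 0.40). PKP4 (ENSG00000144283, chromosome 2, 158456964 to 158682879, plus strand), a p120-catenin relative also found at adherens junctions, stood at 104, 133 and 118 CPM in the libraries labelled KO R1, R2 and R3, against 129, 115 and 115 CPM in those labelled control R1, R2 and R3. Its groups overlapped. PKP4 was not called over all libraries (log2 fold change −0.01, edgeR adjusted p = 0.98, SE 0.13) or without both R2 libraries (−0.16, edgeR adjusted p = 0.39, SE 0.12).

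**Figure D2:**
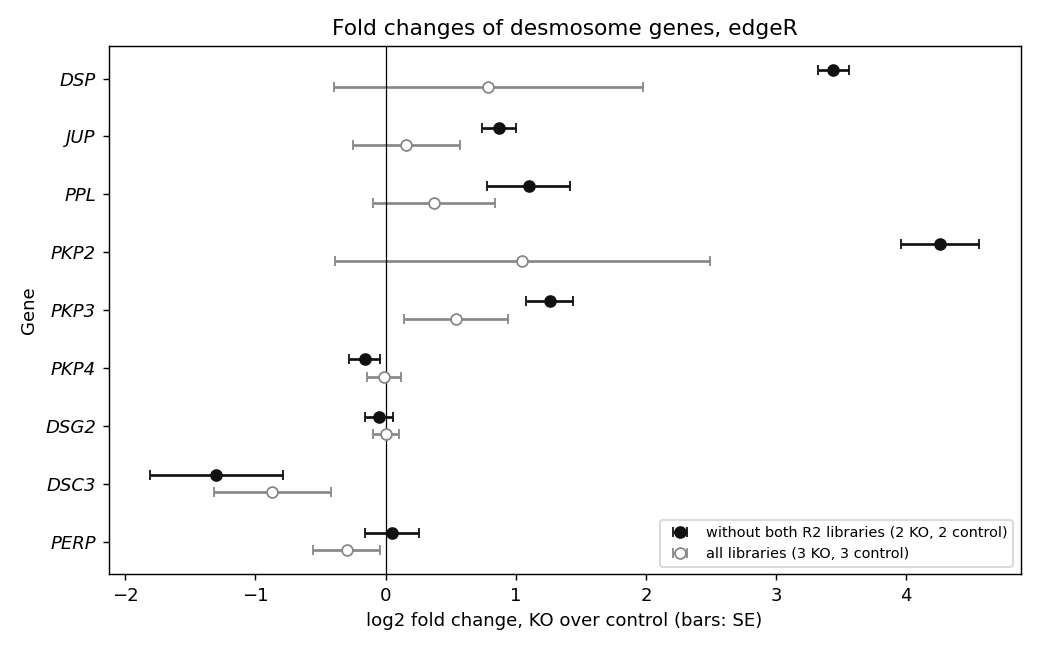
log2 fold change of KO over control (x axis, bars are SE) for the 9 tested genes (y axis), without both R2 libraries in black and over all libraries in grey. PKP2 and DSP lie at 4.26 and 3.44 without both R2 libraries, and DSG2, PKP4 and PERP lie between −0.16 and 0.05.

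Of the cadherins, DSG2 carried nearly all RNA and hardly varied. DSG2 (ENSG00000046604, chromosome 18, 31498043 to 31549008, plus strand), the desmoglein of simple epithelia and heart, stood at 283, 283 and 292 CPM in the libraries labelled KO R1, R2 and R3, against 288, 277 and 294 CPM in those labelled control R1, R2 and R3. The groups overlapped, at 286 ± 5.29 CPM in libraries labelled KO and 286 ± 8.88 CPM in those labelled control (SD, n = 3 each). The log2 fold change of DSG2 was 0 (edgeR adjusted p = 0.99, SE 0.1) over all libraries and −0.05 (edgeR adjusted p = 0.78, SE 0.11) without both R2 libraries. Scaled per kilobase of exon, DSG2 made up 99.7% to 99.9% of the RNA of the 3 cadherin genes in each library.

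The desmocollins DSC2 and DSC3, the other class of desmosomal cadherin, were near the detection limit. DSC2 (ENSG00000134755, chromosome 18, 31058840 to 31102522, minus strand) had 2 to 3 expected counts in the libraries labelled KO and 1.8 to 4 in those labelled control, and did not pass the filter on low counts. DSC3 (ENSG00000134762, chromosome 18, 30990008 to 31042815, minus strand) had 6.12, 9.09 and 7.01 expected counts in the libraries labelled KO R1, R2 and R3, and 19.11, 13.29 and 12.26 in those labelled control R1, R2 and R3. Its labelled groups did not overlap in CPM, at 0.308 to 0.551 in libraries labelled KO and 0.599 to 0.926 in those labelled control, as was the case for 13.6% of genes tested. It was not called over all libraries (log2 fold change −0.87, edgeR adjusted p = 0.67, SE 0.45) or without both R2 libraries (−1.30, edgeR adjusted p = 0.10, SE 0.51).

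DSG2 lies at 1 end of the desmosomal cadherin cluster, whose 7 genes span 559 kb of chromosome 18. In order of position, total expected counts over the 6 libraries were 66.88 for DSC3, 14.8 for DSC2, 2 for DSC1, 3 for DSG1, 0 for DSG4, 12.73 for DSG3 and 34126.59 for DSG2. DSG3, next to DSG2 in the cluster, reached at most 4.58 counts in a library. Outside the cluster, the plakophilin gene PKP1 stood at 0.0966 CPM or below. None of the 7 desmosome genes outside the member list (DSG1, DSG3, DSG4, DSC1, PKP1, EVPL and CDSN) passed the filter.

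PERP (ENSG00000112378, chromosome 6, 138088505 to 138107511, minus strand), a desmosomal target gene of p53 and p63, followed neither the label nor the division seen in DSP. It stood at 51.5, 45.2 and 79.7 CPM in the libraries labelled KO R1, R2 and R3, against 67.2, 92.1 and 57.3 CPM in those labelled control R1, R2 and R3. Its log2 fold change was −0.30 (edgeR adjusted p = 0.77, SE 0.26) over all libraries and 0.05 (edgeR adjusted p = 0.89, SE 0.21) without both R2 libraries.

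Set beside DAPK3 RNA, the 5 called plaque genes were each higher in all 3 libraries with the least DAPK3 (KO R1, KO R3 and control R2, at 10.6 to 13.1 CPM) than in all 3 with the most (KO R2, control R1 and control R3, at 25.9 to 27 CPM). The lowest DSP value of the first 3 libraries was 185 CPM and the highest of the others 17 CPM. For PPL the gap was narrower, 4.26 CPM against 2.64 CPM. Of all genes tested, 22.6% stood higher in this way and 21.2% lower, so the division is shared with many genes. PKP4, DSG2, DSC3 and PERP overlapped between these libraries. No test was made on libraries arranged by DAPK3 RNA. The 5 genes were called from the R1 and R3 libraries of both labels, which belong to this ordering. Their separation was therefore largely fixed by those calls, and the 22.6% of all genes is not a like background for it.

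**Figure D3:**
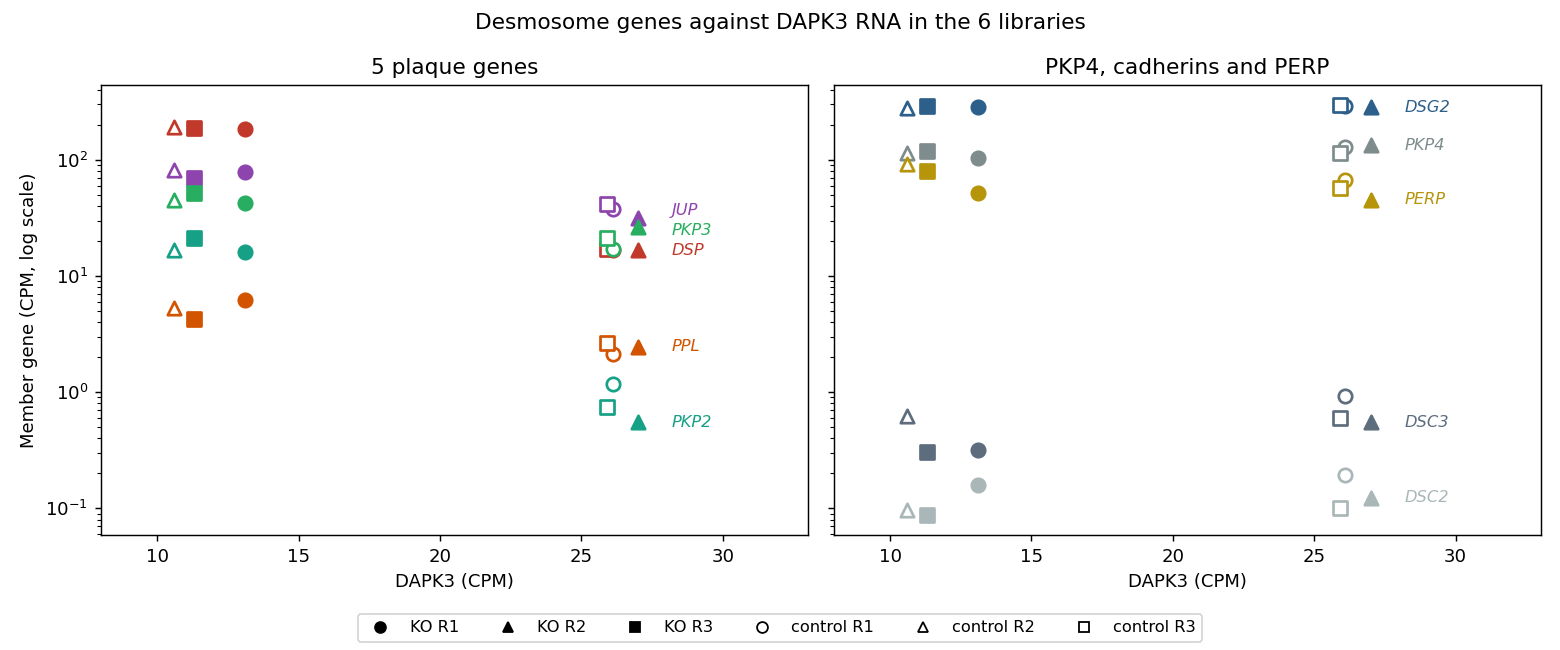
CPM of each desmosome gene (y axis, log scale) against DAPK3 CPM (x axis) in the 6 libraries, filled symbols for KO and open symbols for control, with circles for R1, triangles for R2 and squares for R3. The left panel shows DSP, JUP, PKP3, PKP2 and PPL in 2 sets of 3 libraries each, and the right panel shows PKP4, the cadherins and PERP, whose values overlap.

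The balance between plaque and cadherin RNA followed the plaque genes. Summed CPM per kilobase of exon of the 6 plaque genes over that of the 3 cadherin genes was 1.30, 0.644 and 1.32 in the libraries labelled KO R1, R2 and R3, and 0.596, 1.40 and 0.595 in those labelled control R1, R2 and R3. The cadherin sum itself stood at 45.8 to 47.3 CPM per kilobase in libraries labelled KO and 44.8 to 47.6 CPM per kilobase in those labelled control. DSP over DSG2, both per kilobase, was 0.400, 0.0361 and 0.394 in the libraries labelled KO R1, R2 and R3, and 0.0355, 0.425 and 0.0354 in those labelled control R1, R2 and R3. The median log2 fold change of the plaque genes was 1.23 above that of DSG2 without both R2 libraries and 0.46 above it over all libraries. This gap was not tested, since the genes were chosen with earlier results known.

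The make-up of the plakophilin RNA differed along the same division. Of PKP2, PKP3 and PKP4 together, per kilobase of exon, PKP4 held 44.5%, 66.4% and 42.7% in the libraries labelled KO R1, R2 and R3, and 74.2%, 46.1% and 67.9% in those labelled control R1, R2 and R3. PKP3 held 46.1%, 33.3% and 46.8% in the libraries labelled KO R1, R2 and R3, and 24.9%, 44.9% and 31.5% in those labelled control R1, R2 and R3. PKP2 held 9.39%, 0.371% and 10.5% in the libraries labelled KO R1, R2 and R3, and 0.913%, 8.99% and 0.595% in those labelled control R1, R2 and R3. PKP3 and PKP4 were thus near equal per length where DSP was high, and PKP4 led where DSP was low.

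**Figure D4:**
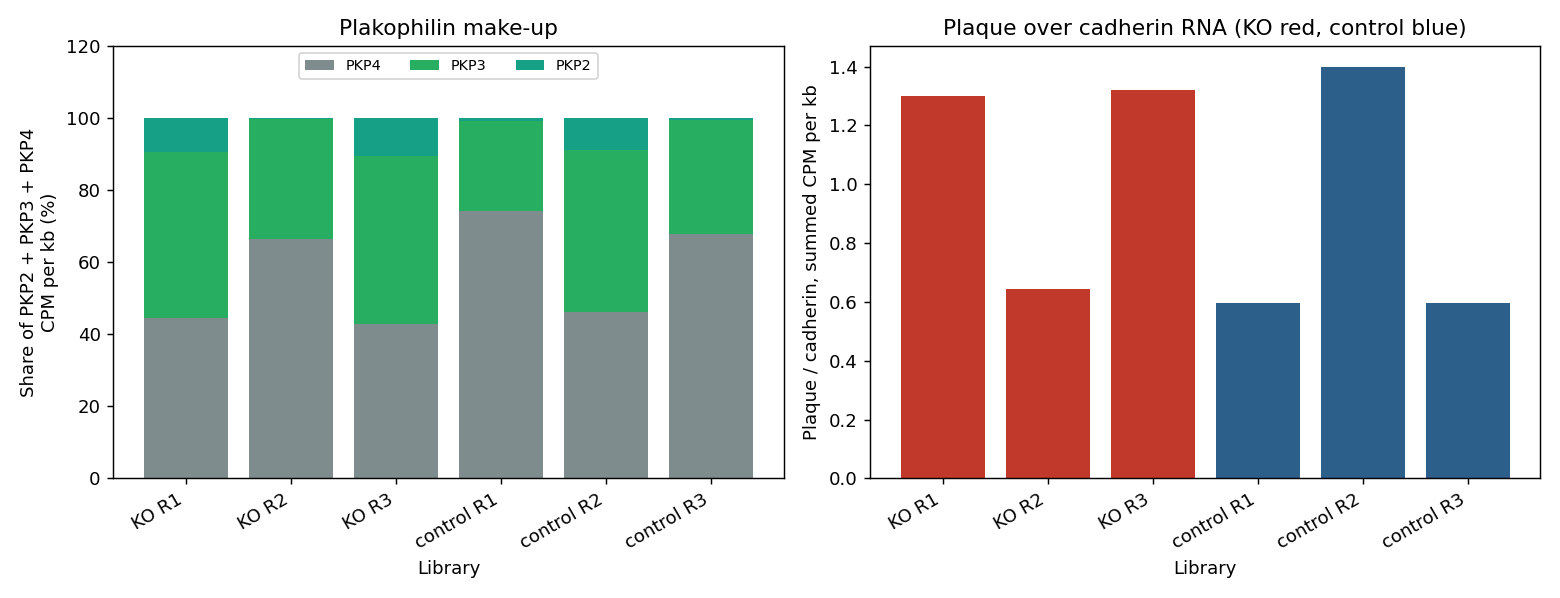
Left, share of PKP2, PKP3 and PKP4 in their summed CPM per kilobase (y axis, %) in each library (x axis). Right, summed plaque over summed cadherin CPM per kilobase (y axis) by library, KO red and control blue. KO R1, KO R3 and control R2 stand at 1.30 to 1.40 on the right, and the others at 0.595 to 0.644.

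Per kilobase of exon, DSG2 was the most abundant member in each library, at 44.7 to 47.5 CPM per kilobase. In the library labelled KO R1, DSP followed at 18.3 CPM per kilobase. DSP and PERP both stood at 18.6 CPM per kilobase in the library labelled KO R3. In the library labelled KO R2, PKP4 followed at 14.0 and DSP stood at 1.65 CPM per kilobase. In the libraries labelled control R1, R2 and R3, DSP stood at 1.65, 19.0 and 1.68 CPM per kilobase, and PERP at 15.7, 21.5 and 13.4.

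Keratins, the filaments that desmosomes anchor, moved unequally. Of 9 tested keratin genes, 6 were called higher and 1 lower without both R2 libraries (median log2 fold change 1.49), where 12.2% of all genes were called higher and 15.2% lower. Over all libraries edgeR called 0 keratins. These shares of all genes also stand behind the counts of the other lists below, and no list was tested against them. KRT17, a stress keratin, stood at 29.1, 3.98 and 61.0 CPM in the libraries labelled KO R1, R2 and R3, against 1.12, 33.2 and 1.85 CPM in those labelled control R1, R2 and R3. KRT16 and KRT14, keratins of stressed and basal epidermis, had log2 fold changes of 4.0 (SE 0.40) and 4.02 (SE 0.45) without both R2 libraries, and KRT6A 1.49 (SE 0.18). The libraries labelled control R1 and R3 held only 7 and 6 counts of KRT16, and 12 and 9 of KRT14. The lower keratin was KRT8, a keratin of simple epithelia, at −1.08 (SE 0.17). KRT18 was called higher, at 0.53 (edgeR adjusted p = 0.021, SE 0.12). KRT7, with the highest CPM of the list in each library, was not called (0.26, edgeR adjusted p = 0.35, SE 0.19). Counts of KRT6A, KRT7, KRT8 and KRT18 were fractional in each library, so part of their reads was divided by estimate. Their values are uncertain to that extent. Counts of KRT17, KRT16 and KRT14 were whole in each library, so no such fraction was seen for them.

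Adherens junction genes moved both ways. Of 11 tested, 2 were called higher and 4 lower without both R2 libraries (median −0.14). NECTIN1, a nectin that adheres neighbouring cells, stood at 108, 31.7 and 121 CPM in the libraries labelled KO R1, R2 and R3, against 47.2, 144 and 46.4 CPM in those labelled control R1, R2 and R3. NECTIN3, its partner in binding between cells, ran the other way, with a log2 fold change of −1.51 (edgeR adjusted p = 0.0022, SE 0.19) without both R2 libraries. CDH2, encoding N-cadherin, and VCL, encoding vinculin, were also lower there, at −1.03 (SE 0.12) and −1.67 (SE 0.15). CTNNB1, encoding beta-catenin, which binds cadherin tails as plakoglobin does, stood at −0.19 (edgeR adjusted p = 0.25, SE 0.11) and was not called.

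Of 7 tight junction genes tested, 0 were called higher and 2 lower without both R2 libraries (median −0.33), a share near the 27.3% of all genes called either way. They were MARVELD2, encoding tricellulin (log2 fold change −2.53, SE 0.53), and OCLN, encoding occludin (−1.47, SE 0.42). MARVELD2 was near the detection limit, at 4 and 3 counts in the libraries labelled KO R1 and KO R3. Of 5 other plakin and linker genes, KAZN, encoding the periplakin partner kazrin, was called higher (1.65, SE 0.21) and DST, encoding dystonin, lower (−0.83, SE 0.11). KAZN stood at 13.5, 4.17 and 14.0 CPM in the libraries labelled KO R1, R2 and R3, against 4.14, 13.9 and 4.44 CPM in those labelled control R1, R2 and R3.

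Of 6 genes of desmosome assembly and turnover tested, 1 was called higher and 3 lower without both R2 libraries (median −0.50). EGFR, a receptor kinase whose activity is known to weaken desmosomes, stood at 492, 464 and 525 CPM in the libraries labelled KO R1, R2 and R3, against 301, 399 and 326 CPM in those labelled control R1, R2 and R3. Unlike those of DSP, the labelled groups of EGFR did not overlap, as was the case for 13.6% of genes tested. Those of RHOA, lower in the libraries labelled KO, did not overlap either. The log2 fold change of EGFR over all libraries was 0.53 (edgeR adjusted p = 0.63, SE 0.13). Without both R2 libraries EGFR was the gene called higher, at 0.67 (edgeR adjusted p = 0.0079, SE 0.12). PRKCA, a protein kinase C that promotes desmosome disassembly, ADAM10, a membrane protease that sheds cadherins, and ATP2A2, the calcium pump mutated in Darier disease, were called lower without both R2 libraries, at −0.64 (SE 0.12), −0.59 (SE 0.12) and −0.42 (SE 0.12).

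Of 5 epithelial transcription factor genes tested, 4 were called higher and 0 lower without both R2 libraries (median 1.18), and GRHL2, OVOL2 and OVOL1 had at most 1 count in any library. The 4 were KLF4 (log2 fold change 1.29, SE 0.14), KLF5 (0.71, SE 0.12), TP63 (1.18, SE 0.21) and GRHL3 (2.43, SE 0.52). GRHL3 rests on only 10 and 6 counts in the libraries labelled control R1 and R3, and 54 and 35 in those labelled KO R1 and R3. The labelled groups of KLF4 and of KLF5 did not overlap, as was the case for 13.6% of genes tested. KLF5 followed the labels, at 62.8, 68.5 and 62.6 CPM in the libraries labelled KO R1, R2 and R3, against 39.4, 39.7 and 35.6 CPM in those labelled control R1, R2 and R3, but was not called over all libraries (0.76, edgeR adjusted p = 0.63, SE 0.11). TP63, a master regulator of stratified epithelium, crossed them, at 79.1, 49.8 and 114 CPM in the libraries labelled KO R1, R2 and R3, against 48.2, 109 and 35.2 CPM in those labelled control R1, R2 and R3.

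Of 6 repressors of epithelial junction genes tested, 4 (ZEB1, ZEB2, TWIST1 and TWIST2) were called lower and 0 higher without both R2 libraries (median −0.76), where 15.2% of all genes were called lower and 12.2% higher. ZEB1 stood at 42.5, 92.6 and 43.9 CPM in the libraries labelled KO R1, R2 and R3, against 71.1, 41.4 and 60.4 CPM in those labelled control R1, R2 and R3 (log2 fold change −0.63, edgeR adjusted p = 0.013, SE 0.13 without both R2 libraries). ZEB2 had a log2 fold change of −1.05 (SE 0.17) in that comparison. SNAI1 and SNAI2, at −0.32 (SE 0.36) and −0.21 (SE 0.20), were not called. Over all libraries edgeR called 0 genes of these lists, with 2 transcription factors (KLF4 and KLF5) and EGFR at an unadjusted p under 0.05.

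**Figure D5:**
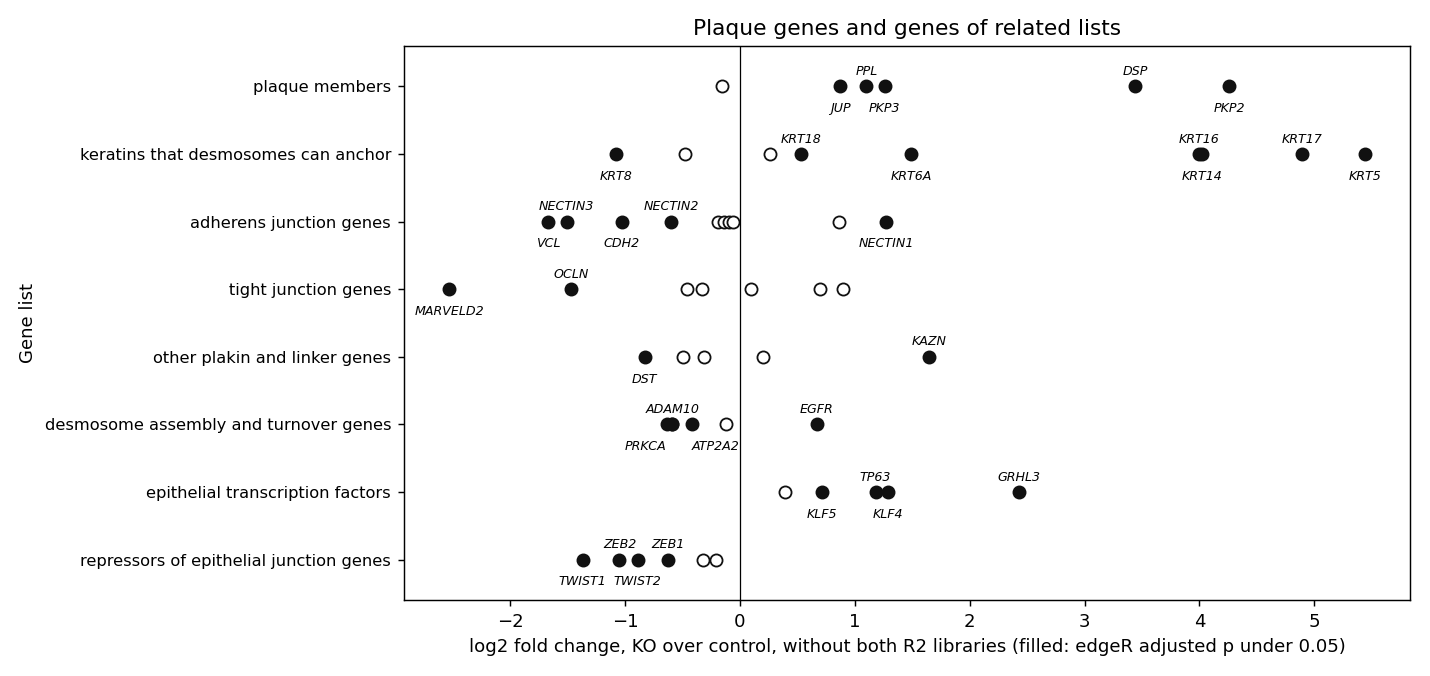
log2 fold change of KO over control without both R2 libraries (x axis) for the plaque genes and 7 related lists (y axis), filled where the edgeR adjusted p was under 0.05. CDH3 is not drawn, because its fold change rests on control libraries with 0 and 1 counts. The plaque genes and epithelial transcription factors have called genes on the higher side only, and the repressors and tight junction genes on the lower side only. For tight junction genes these are 2 of 7 tested, near the 27.3% of all genes called either way.

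Of the markers of other cell types, LCP1, PTPRC, COL1A1 and PDGFRB divided the libraries as DSP did but in the opposite direction, low where DSP was high. The summed level of 4 blood markers ranged from 0.703 to 50.6 CPM in libraries labelled KO and from 0.725 to 50.0 CPM in those labelled control. Within that list LCP1 stood at 0.0531, 47.0 and 0.132 CPM in the libraries labelled KO R1, R2 and R3, against 46.3, 0.145 and 45.9 CPM in those labelled control R1, R2 and R3, PTPRC reached 3.25 CPM, HBB stayed at or below 1.25 CPM and CD3E had at most 1 count. Of 3 tested blood markers and of 3 tested stromal markers, 2 each were lower without both R2 libraries. The stromal marker DCN was not called there (edgeR adjusted p = 0.22) and did not follow the division. It stood at 10.1, 6.49 and 4.09 CPM in the libraries labelled KO R1, R2 and R3, against 13.4, 9.27 and 9.58 CPM in those labelled control R1, R2 and R3. The 4 stromal markers summed to between 61.5 and 553 CPM in libraries labelled KO and 75.9 and 649 CPM in those labelled control, led by COL1A1, with LUM at or below 0.292 CPM. Of 3 endothelial markers, PECAM1 reached 1.80 CPM, VWF had at most 1 count and CDH5 had 0, and 3 melanocyte markers summed to at most 0.743 CPM. The part of these markers in the desmosome values was not tested, and in bulk RNA fewer cells of a type and less RNA per cell cannot be told apart.

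Over the 6 libraries, the genes most like DSP were GPM6A, TMEM63C, CACNB4, NBEAP1 and ABCA12, by the Euclidean distance between centred log2 CPM values among 12013 genes. Their distances to DSP were 0.451, 0.480, 0.557, 0.591 and 0.620. TMEM63C, for example, stood at 38.5, 3.61 and 50.7 CPM in the libraries labelled KO R1, R2 and R3, against 4.19, 56.7 and 4.99 CPM in those labelled control R1, R2 and R3.

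Counts of DSP, PKP2, PKP3, JUP, PPL and PERP were whole in each library, so no fraction of a read shared with another gene was seen. Counts of DSG2 and DSC3 were fractional in each library, and those of PKP4 and DSC2 in some, so part of their reads was divided by estimate. Genes that overlap PKP2, PKP4, PPL, DSG2 or DSC2 in GENCODE 29, among them PKP4-AS1, DSG2-AS1 and SEC14L5, had at most 6.46 expected counts in any library.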

How the data were processed

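The values are expected counts for each gene, as the authors deposited them, 1 column per library and not normalized. The submitters' processing notes name GRCh38, Bowtie2, RSEM and edgeR. Their versions, the annotation release and the strand setting were not given in the sources used here. Libraries were grouped by title. Counts were rounded and tested in R 4.3.3 by the quasi-likelihood method of edgeR 4.0.16, with TMM factors and filterByExpr over the whole table, with Benjamini-Hochberg adjustment over all genes tested and calls at 0.05. Each SE is the absolute fold change on the log2 scale over the square root of F. CPM per kilobase used the union of GENCODE 29 exons, which may differ from the authors' annotation. Alternatives were RLE scaling, other filters, DESeq2 1.42.0, limma-voom (limma 3.58.1), a replicate block and each library left out. The edgeR step was tested on simulated counts.

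The members, lists, alternatives and the rule for named genes (all members, up to 4 called genes per related list by adjusted p, otherwise the most expressed, and the 5 genes nearest to DSP) were chosen with earlier results of these data known. CTNNB1, SNAI1, SNAI2, CDH1, CDH3, KRT7, KRT8, KRT18, RHOA, DCN, PDGFRB and the transcription factor genes near 0 were named after their values were seen. So were KRT5 and NECTIN2, which are named on the plot of related lists alone. Some symbols of the lists stand in the table under older names and were matched by Ensembl identifier.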

Additional observations from a re-analysis of the deposited data

How the results depend on the processing

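Over all libraries, the count of members called was 0 under each alternative run, with no adjusted p from DESeq2 for DSP and DSC3. Leaving out 1 library each, log2 fold changes that turned sign ranged from −0.12 to 0.06 for PKP4, −0.09 to 0.56 for JUP, −0.05 to 0.01 for DSG2 and 0 to 0.83 for PPL. DSP ranged from 0.31 to 2.92 and PKP2 from 0.44 to 3.70, each highest without the library labelled control R2. Without both R2 libraries, 5 members were called with RLE scaling, the CPM filter, DESeq2 and limma-voom, and 4 with no filter, where PPL was not called. DSP, PKP2, PKP3 and JUP were called under each of these. Leaving out 1 more library gave 4 to 5 called members, with the lone library assumed to vary like the pair. In these fits PERP ranged from −0.30 to 0.34, and the median log2 fold change of plaque genes above DSG2 from 1.10 to 1.38, against 1.23 in 4 libraries. Calls over all genes were 4055 in 4 libraries and 2543 when the library labelled control R1 was also left out. DESeq2 called 114 genes over all libraries, and edgeR and limma-voom 0.

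Between libraries with the same number, deviations from the group means had correlations of −0.63, −0.84 and −0.67. The R2 library of each label stood apart from its group in opposite directions, which by itself makes these values negative. They therefore cannot show whether the numbers pair cultures, and the numbers were not taken to pair them. With the replicate block 0 members were called over all libraries and 4 without both R2 libraries, where PPL had edgeR adjusted p = 0.10, and 2705 genes in all. The correlation was −0.26 in the 4 libraries, and with crossed pairs, an alternative chosen after seeing the data, 5 members and 6149 genes were called. DSC2 and DSC3 rest on at most 19.11 counts, which limits what can be said of them.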
